A study of Mus musculus with 42 samples.

Results

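Whole-tumour RNA from mice dosed daily with BXCL701 was compared with that from mice given vehicle, both collected on day 7 at the 0 h harvest. BXCL701 (talabostat) is an inhibitor of the serine peptidases DPP8, DPP9 and DPP4 and of their relative, fibroblast activation protein. The comparison was chosen by its labels alone and holds 6 of the 42 tumours of the series, 3 in each group, each from a separate animal. The Pan02 line, a mouse pancreatic adenocarcinoma, was grown under the skin of the flank, and the dose was 20 ug per mouse by mouth. The sources differ on the mouse strain: the series' design names C57BL/6, the treatment protocol C57BL/6J or Balb/c. The extraction protocol names PBS as the control treatment. Age and sex of the animals are not given in the labels, and what event 0 h is counted from is not stated. Tumours came from a transplanted cell line, and each sample holds tumour cells together with host immune, stromal and neighbouring tissue. The series' design text names the question as what inhibiting these peptidases does to the immune makeup of the tumour at different times. Other groups were collected at 1, 8 and 16 h on day 7, under BXCL701, and at 0 h on day 14 under both treatments. The rest of the 14 groups were vehicle at 0 h on day 1 and BXCL701 at 1, 8 and 16 h on days 1 and 14.

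DPP8 and DPP9 are cytosolic peptidases that hold the NLRP1 inflammasome sensor in check, and CARD8 in humans, and their inhibition can set off pyroptosis, a lytic death of myeloid and lymphoid cells with release of interleukins. DPP4 and fibroblast activation protein act outside the cell. DPP4 trims the amino end of chemokines such as CXCL10, which draws T and NK cells through CXCR3. Fibroblast activation protein marks the stroma of many carcinomas. Neutrophils are drawn into tumours by CXCR2 ligands and granulocyte colony-stimulating factor, and interferons raise antigen presentation on tumour and host cells.

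No gene passed the test in either direction among the 16613 tested (limma, Benjamini-Hochberg adjusted p = 1 for every gene, 0.0% called). An unadjusted p below 0.05 was met by 357 genes, or 2.15%, of which 161 (0.969%) stood higher under BXCL701 and 196 (1.18%) lower. That share is below the 0.05 that such a threshold gives where nothing differs. In 558 genes (3.36%) all 3 BXCL701 tumours lay above all 3 vehicle tumours, and in 515 (3.1%) all 3 lay below. The median difference over all genes was -0.02 on the log2 scale. For the median gene the 95% interval of the difference reached 0.638 log2 units, or 1.56-fold, to each side. Differences smaller than that were mostly not detectable with 3 tumours a group, and larger ones did not pass either (Mmp8, 4.12-fold). The interval is unadjusted, so it is not a detection limit of the test over all genes. The values that follow are therefore descriptions of 6 tumours. Levels are log2(value + 1), where a value is an estimated read number scaled per library, and differences are BXCL701 minus vehicle on the same scale with the standard error (SE) of the fit.

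Within these limits, genes of mitosis and of cholesterol synthesis stood lower in the BXCL701 tumours, and interferon-response, antigen-presentation and some neutrophil genes stood higher. Of 21 mitosis and proliferation genes, 21 had lower means under BXCL701, with a median difference of -0.58. All 18 cholesterol genes were also lower, with a median of -0.58. Type I interferon-stimulated genes had a median of 0.64, with 21 of 22 higher, and MHC class II genes one of 0.74, with 10 of 10 higher. None of these genes passed the test. Counts without overlap are to be read beside 3.36% of all genes higher and 3.1% lower. A single member without overlap in a short list says little beside these shares. The groups of genes come from lists of pathways and cell markers, chosen with earlier results of these data known. Members of a list also move together, so the counts are not independent observations and give no independent support.

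Promoters are shown for 3 members of the lists whose genes stood together, because mitotic and interferon-stimulated genes are known for short shared motifs. The mitotic genes carry the CHR element and CCAAT boxes, through which the DREAM complex, MYB-containing complexes and NF-Y act. Interferon-stimulated genes carry the interferon-stimulated response element. Each sequence runs 5′ to 3′ along the gene, over the 300 bases around the RefSeq start on GRCm38.p6, most of them before it, and all 3 genes lie on the minus strand. In the Ccnb2 and Cdc20 windows, capitals mark the CHR element, searched as TTTGAA. They also mark CCAAT boxes of the same windows, searched as ATTGG on both strands and all reading CCAAT along the gene here. In the Oas3 window they mark the interferon-stimulated response element, searched as a pair of GAAA runs with any 2 bases between. All were searched on both strands, and in these windows no marked motif overlaps another. The windows are chr9:70421505-70421804 for Ccnb2, chr4:118437294-118437593 for Cdc20 and chr5:120777610-120777909 for Oas3.
Ccnb2: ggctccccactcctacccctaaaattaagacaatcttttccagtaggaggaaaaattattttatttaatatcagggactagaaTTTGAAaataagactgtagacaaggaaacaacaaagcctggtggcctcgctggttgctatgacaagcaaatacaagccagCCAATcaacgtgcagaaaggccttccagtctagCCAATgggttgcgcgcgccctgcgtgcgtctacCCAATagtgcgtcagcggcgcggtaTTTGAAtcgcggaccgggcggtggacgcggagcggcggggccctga
Cdc20: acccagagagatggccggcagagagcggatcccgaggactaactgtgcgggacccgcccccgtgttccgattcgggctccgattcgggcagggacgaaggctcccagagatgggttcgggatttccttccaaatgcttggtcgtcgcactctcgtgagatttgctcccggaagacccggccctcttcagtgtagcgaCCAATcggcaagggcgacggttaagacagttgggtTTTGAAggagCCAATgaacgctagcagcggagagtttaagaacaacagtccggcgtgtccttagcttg
Oas3: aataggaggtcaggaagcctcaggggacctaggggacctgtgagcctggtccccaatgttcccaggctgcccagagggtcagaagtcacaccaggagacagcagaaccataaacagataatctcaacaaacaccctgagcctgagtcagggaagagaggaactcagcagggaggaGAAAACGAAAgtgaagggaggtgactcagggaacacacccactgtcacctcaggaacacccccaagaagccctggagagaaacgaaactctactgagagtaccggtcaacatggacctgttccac
The CHR letters were found in 11 of the 15 matched windows of the mitosis list (73.3%) and in 17.9% of all 32851 RefSeq windows. The CCAAT letters, in either orientation, were found in 14 of the 15 (93.3%), against 37.4% of all windows. For the type I interferon list, 10 of 17 windows (58.8%) held the response element, against 3.44% of all. The sterol regulatory element CACCCCAC was found in 1 of 14 windows of the cholesterol list (7.14%), that of Hmgcs1, and in 2.87% of all windows. Only these exact letters were searched, so sterol elements with other letters were not counted. RefSeq windows matched 15 of 21, 16 of 22 and 12 of 18 members of these lists, and a few members have more than 1 window. These matches describe letters in the windows and show no binding. They use no level of any tumour, and the mitosis and interferon lists hold genes known for these motifs. The shares therefore say nothing about BXCL701.

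Among the mitosis genes the mean level of the list was 10.58, 10.60 and 10.39 in the vehicle tumours and 10.06, 9.64 and 10.04 under BXCL701, so the groups did not overlap. Cdc25c, the phosphatase that switches on the mitotic kinase, stood at 8.24, 8.00 and 7.94 in vehicle and at 7.33, 6.83 and 7.46 under BXCL701, a difference of -0.85 ± 0.24 (unadjusted p = 0.00131 by limma). Every BXCL701 tumour lay below every vehicle tumour, and the second BXCL701 tumour was the lowest. Ccnb1, which encodes the mitotic cyclin B1, measured 10.73, 10.70 and 10.35 against 10.03, 9.69 and 9.99 (-0.69 ± 0.23). Ccnb2, cyclin B2, whose promoter is shown above, measured 10, 9.86 and 9.87 against 9.58, 8.98 and 9.59 (-0.53 ± 0.18). Both cyclins were lower in each BXCL701 tumour than in any vehicle tumour. Cdc20, the activator of the anaphase-promoting complex, was 11.11, 10.56 and 10.77 in vehicle and 10.49, 9.57 and 10.59 under BXCL701 (-0.60 ± 0.21), with overlap. Mki67, which encodes the proliferation antigen Ki-67, was 11.83, 12.61 and 11.87 against 11.58, 11.62 and 11.08 (-0.68 ± 0.33). In all, 15 of the 21 genes lay lower without overlap, beside 3.1% of all genes tested. An unadjusted p below 0.05 (limma) was met by 18, all lower, beside 1.18% of all genes. Members ranged from -0.85 to -0.44.

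Several genes of the smallest p-values outside that list also act in spindle or replication. Pif1, a helicase that unwinds DNA at replication forks and telomeres (chr9:65587160-65595967, plus strand), had the smallest p of any named gene, at 8.43, 8.36 and 8.46 in vehicle and 7.41, 6.98 and 7.56 under BXCL701 (-1.10 ± 0.24, unadjusted p = 7.82e-05, 2.14-fold lower). The 3 vehicle tumours lay close together, all above the BXCL701 tumours. In the deposited log2 FPKM table the difference of Pif1 was smaller, -0.43. Kif2c, a kinesin that dismantles microtubules at the centromere, differed by -0.66 ± 0.18, Tacc3, a spindle protein, by -0.64 ± 0.20, and Gtse1, a mitotic microtubule regulator, by -0.61 ± 0.20. Donson, a replication-fork protein, differed by -0.50 ± 0.16. In these 4 the tumours of the groups did not overlap. Kifc1 and Kifc5b are near-identical kinesins whose reads can be split between them, so their separate values, -0.61 and -0.64, are uncertain. The 16 DNA replication genes were all lower, but less so, with a median of -0.24, and 3 of 16 did not overlap. Rrm1, the large subunit of ribonucleotide reductase, was 11.57, 11.82 and 11.53 against 11.36, 11.05 and 11.29 (-0.40 ± 0.19).

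**Figure D1:**
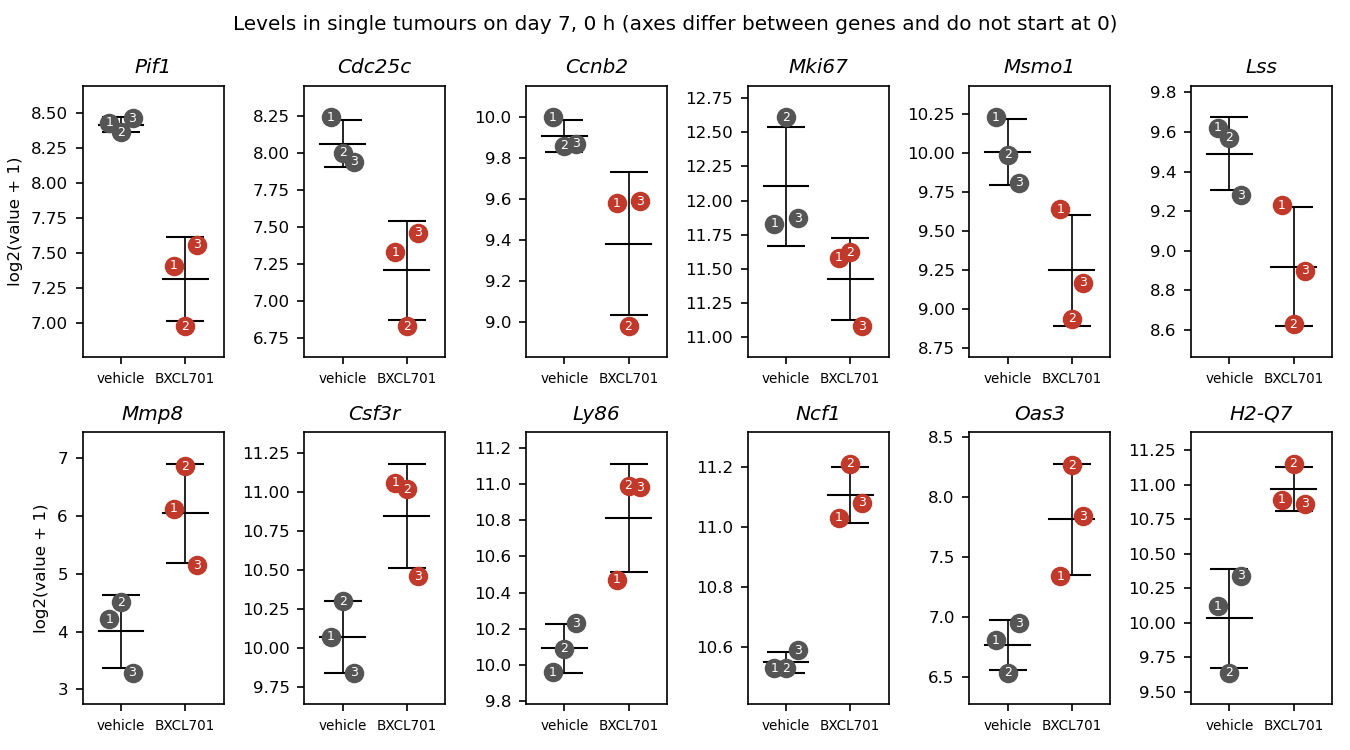
Levels of 12 genes in the 3 vehicle tumours (grey) and the 3 BXCL701 tumours (red) of day 7, 0 h, as log2(value + 1). Digits are replicate numbers, which pair nothing, horizontal lines are means and bars are SDs. The 12 genes were picked by hand, and genes with overlap such as Cdc20, Cd274 and Dpp4 are not drawn. All 12 genes show no overlap between the groups, beside 3.36% of all genes higher and 3.1% lower without overlap. None passed the test over all genes.

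The second BXCL701 tumour weighs on these values. Leaving it out brought the median of the mitosis list from -0.58 to -0.38, of the replication list from -0.24 to -0.07 and of the cholesterol list from -0.58 to -0.40. All 21 mitosis genes remained lower under every alternative run, with medians from -0.68 to -0.38. This tumour and the second vehicle tumour also had the highest transcript-length index of all 42, 0.326 and 0.333, beside -0.0205 to 0.0933 in the other 4. The index is the slope of a library's deviations from the gene means on log2 transcript length, and its part in these differences was not tested beyond a covariate. With the index as a covariate the mitosis median was -0.59.

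Cholesterol synthesis and uptake genes formed the other lower group. The list mean was 10.67, 10.38 and 10.27 in vehicle and 10.13, 9.49 and 10 under BXCL701, so the groups did not overlap. Msmo1, the sterol-C4-methyl oxidase, was 10.23, 9.99 and 9.81 against 9.64, 8.94 and 9.17 (-0.76 ± 0.23, unadjusted p = 0.00248). Lss, lanosterol synthase, differed by -0.57 ± 0.20, and Sc5d, sterol-C5-desaturase, by -0.56 ± 0.21. These 3 did not overlap between the groups, nor did 10 of the 18 members in all, beside 3.1% of all genes lower without overlap. Members ranged from -1.01 to -0.13. Of 14 hypoxia and glycolysis genes, 13 were lower, with a median of -0.38 (-0.25 without the second BXCL701 tumour), and 5 did not overlap. Ankrd37, a target of hypoxia-inducible factor, was 8.19, 7.76 and 7.74 against 6.70, 6.36 and 7.61 (-1.01 ± 0.42). The third BXCL701 tumour lay close to the vehicle tumours in this gene. Egln3, the oxygen-sensing prolyl hydroxylase, differed by -0.95 ± 0.46 and Bnip3, a mitophagy receptor, by -0.62 ± 0.32.

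**Figure D2:**
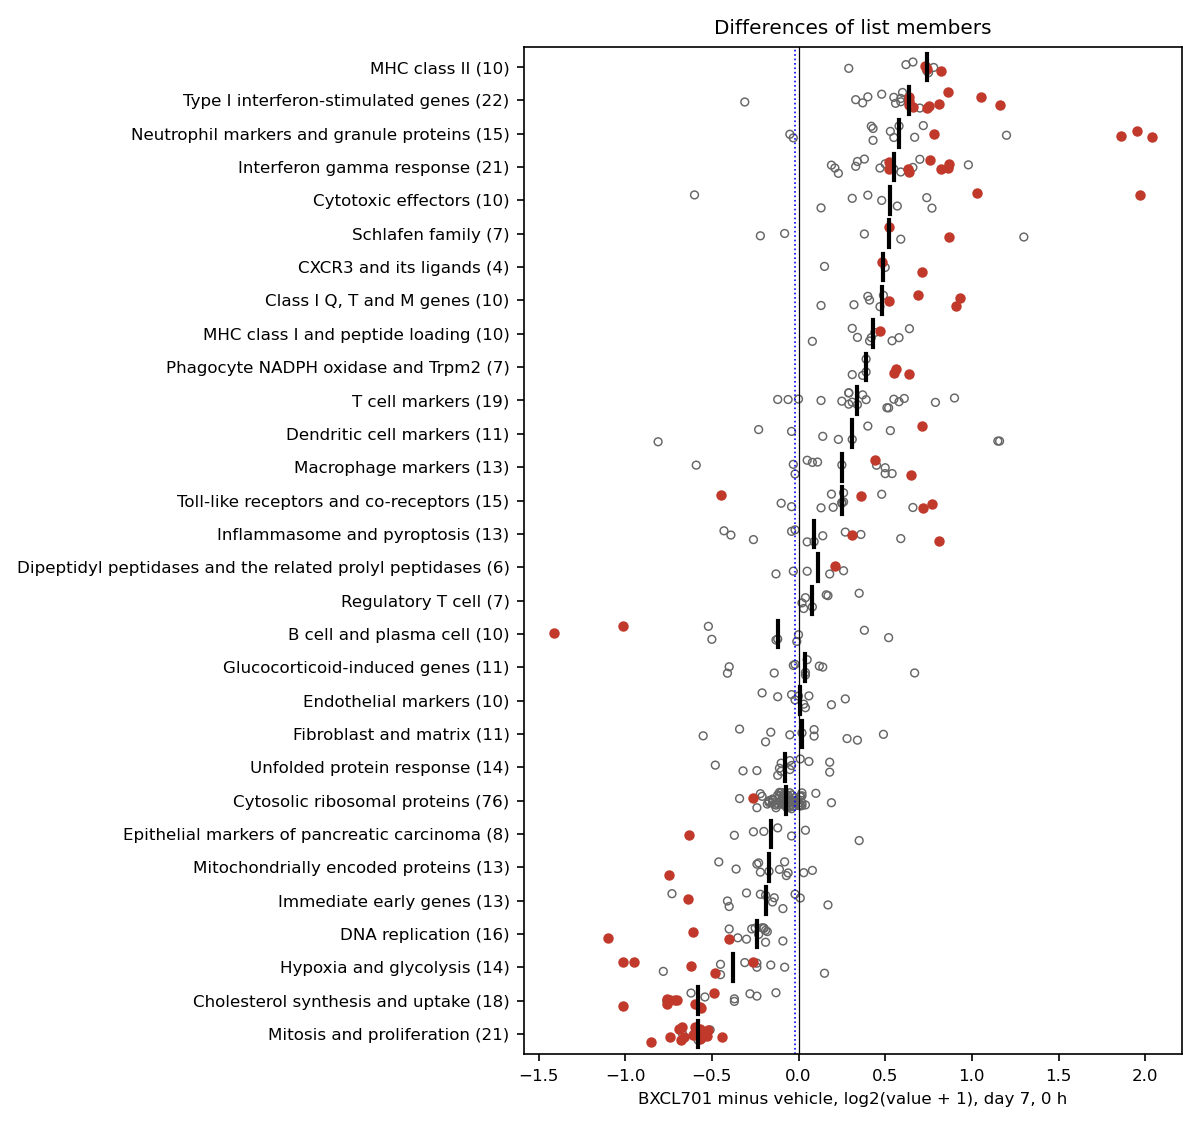
Difference of each tested member (circles, filled red where the 3 and 3 tumours do not overlap) for 30 of the 45 lists, with the number of members tested in parentheses. Thick black lines are list medians, the dotted line is the median of all genes (-0.02), and mitosis and cholesterol have the lowest medians among the lists drawn, both at -0.58. The immunoglobulin and keratinocyte lists, with lower medians (-1.20 and -1.50), are among those not drawn.

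Neutrophil genes were higher in part. Of 17 listed, 15 passed the filter on low values over all 42 libraries (Elane and Mpo did not). In these 6 tumours alone 12 passed it. Of the 15, 13 were higher and 4 did not overlap. The median was 0.58 (0.94 without the third BXCL701 tumour and 0.51 without the first). Mmp8, the neutrophil collagenase (chr9:7558456-7568485, plus strand), was 4.21, 4.51 and 3.29 in vehicle and 6.12, 6.86 and 5.15 under BXCL701, a difference of 2.04 ± 0.53 (unadjusted p = 0.000558, 4.12-fold). The gene was low per length, at 0.352 ± 0.144 FPKM (SD, n = 3) in vehicle and 1.67 ± 1.02 FPKM (SD, n = 3) under BXCL701. The lowest BXCL701 tumour stood above the highest vehicle tumour. Stfa2l1, a stefin A-like protease inhibitor, was 3.71, 3.86 and 1.82 against 4.90, 5.61 and 4.71 (1.95 ± 0.62). Lcn2, a siderophore-binding lipocalin of neutrophil granules that epithelial cells also make, was 6.86, 5.55 and 6.82 against 8.86, 8.07 and 7.87 (1.86 ± 0.67). Csf3r, which encodes the G-CSF receptor of the neutrophil lineage, was 10.07, 10.30 and 9.84 against 11.06, 11.02 and 10.46 (0.78 ± 0.26). In bulk tumour RNA, more cells of a type and more RNA per cell cannot be told apart. Nlrp12, an NLR protein of myeloid cells, was 3.99, 4.05 and 4.15 against 5.26, 5.62 and 4.83 (1.17 ± 0.37).

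The signals that draw neutrophils did not stand higher as a group. Of 8 tested genes for neutrophil-recruiting chemokines and cytokines, 6 were lower and 2 higher, with a median of -0.20, and none of the 8 was without overlap. Leaving out single tumours moved that median between -0.32 (without the second BXCL701 tumour) and -0.07 (without the third). Cxcl1, a CXCR2 ligand, differed by -0.47 ± 0.73, Csf3, which encodes granulocyte colony-stimulating factor, by -0.66 ± 0.95 at low levels, and Il6, interleukin 6, by -0.28 ± 0.56. These intervals are wide and allow changes in both directions.

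Ly86 (MD-1) had the smallest p among the named genes that stood higher. It encodes the partner of the receptor CD180 and modulates lipopolysaccharide signalling in B cells and myeloid cells. At chr13:37345208-37419036 (plus strand), it was 9.96, 10.09 and 10.23 in vehicle and 10.47, 10.99 and 10.98 under BXCL701 (0.72 ± 0.17, unadjusted p = 0.000211, 1.65-fold). Cd180 itself was 7.84, 8.06 and 7.94 against 8.37, 9.06 and 8.72 (0.77 ± 0.34). Both partners stood higher in each BXCL701 tumour than in any vehicle tumour. Ly96 (MD-2), the partner of Tlr4, was lower, at 7.12, 6.46 and 6.71 against 6.13, 6.36 and 6.44 (-0.45 ± 0.22). Over the 15 genes of Toll-like receptors and their co-receptors the median was 0.25, with 12 higher. It was 0.12 without the second BXCL701 tumour, and 0.15 and 0.40 without the first and second vehicle tumours.

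The phagocyte NADPH oxidase genes, whose complex makes superoxide, were all higher, 7 of 7, with a median of 0.39. Ncf1, the p47 subunit, was 10.53, 10.53 and 10.59 against 11.03, 11.21 and 11.08 (0.55 ± 0.19). Trpm2, a calcium channel of phagocytes in the list, was higher by 0.64 (SE 0.31). Tbxas1, thromboxane synthase, was 8.73, 8.48 and 8.66 against 9.41, 9.51 and 9.65 (0.90 ± 0.27). In these 3 genes the tumours did not overlap. Rgs2, a regulator of G-protein signalling, was higher by 0.48 (SE 0.15), and Slfn1, of the Schlafen family, by 0.87 (SE 0.33). Macrophage markers were higher in 10 of 13, with a median of 0.25 (0.41 without the third vehicle tumour). Without the first vehicle tumour 7 were higher and 6 lower, with a median of 0.30. Adgre1, which encodes F4/80, was 10.94, 11.31 and 11.40 against 11.45, 11.81 and 11.70 (0.44 ± 0.19), and Lyz2, lysozyme, was higher by 0.65 (SE 0.28). Both had no overlap between the groups.

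Interferon-response genes stood higher. Of 22 type I interferon-stimulated genes, 21 were higher and 10 lay higher without overlap, beside 3.36% of all genes. Oas3, a sensor of double-stranded RNA whose promoter is shown above, was 6.81, 6.54 and 6.95 against 7.34, 8.26 and 7.84 (1.05 ± 0.40). Ifi44 was higher by 1.16 (SE 0.47), Oasl2 by 0.74 (SE 0.30) and Rtp4 by 0.64 (SE 0.27). The list mean was 8.91, 8.48 and 8.39 in vehicle and 8.94, 9.43 and 9.23 under BXCL701. The first tumours of the groups lay next to each other, and the groups barely separated. All 21 interferon gamma response genes were higher, with a median of 0.55 and 8 without overlap. Irgm2, an interferon-inducible GTPase, was higher by 0.76 (SE 0.47). Cd274, which encodes PD-L1, was 9.18, 8.79 and 9.02 against 9.17, 9.48 and 8.99 (0.21 ± 0.43), with overlap.

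Antigen-presentation genes followed the same direction with wide errors. All 10 class I and peptide-loading genes were higher, with a median of 0.43, and 1 did not overlap, beside 3.36% of all genes. That median was 0.70 without the first vehicle tumour and 0.28 without the second. The gene without overlap, B2m, the light chain of class I, was 15.04, 14.50 and 14.43 against 15.12, 15.21 and 15.06 (0.47 ± 0.25). The 10 tested class I Q, T and M genes were higher, with a median of 0.48 and 4 without overlap. H2-Q6 differed by 0.91 ± 0.35 and H2-Q7 by 0.93 ± 0.39, but reads of these near-identical genes can be assigned to either, which makes each value uncertain. All 10 class II genes were higher, with a median of 0.74, which was 0.45 without the second vehicle tumour. Ciita, their master regulator, was 9.02, 8.75 and 8.90 against 9.80, 9.71 and 9.61 (0.82 ± 0.55), with no overlap but a standard error set by the spread over all 14 groups.

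T cell markers were higher in 17 of 19, with a median of 0.34, and none was without overlap. Without the second vehicle tumour the median was 0.11, with 13 higher and 6 lower, and without the second BXCL701 tumour it was 0.52. Cd8a, the co-receptor of cytotoxic T cells, was 7.94, 6.81 and 6.95 against 8.09, 7.65 and 7.51 (0.52 ± 0.46). Trbc1, a constant segment of the T cell receptor, was higher by 0.90 (SE 0.50). Of 10 cytotoxic effector genes, 9 were higher, with a median of 0.53, which was 0.83 without the first vehicle tumour and 0.31 without the second. Ifng, interferon gamma itself, was 3.81, 3.14 and 2.76 against 4, 4.18 and 4.62 (1.03 ± 0.70), and Gzma, granzyme A, 2.90, 3.55 and 0.75 against 3.60, 5.21 and 4.30 (1.97 ± 0.96). In Gzma the third vehicle tumour was far below the others, and without it the difference was 1.15. NK cell markers were higher in 9 of 12. Klra4, an activating receptor of NK cells (Ly49D), stood the other way, at 6.12, 7.22 and 6.59 against 5.47, 4.90 and 5.70 (-1.29 ± 0.49), and Ncr1, which encodes NKp46, differed by 0.66 ± 0.74. CXCR3 and its ligands were higher in 4 of 4. Cxcl9, a ligand induced by interferon gamma, was 11.61, 10.99 and 11.29 against 12.09, 11.85 and 12.10 (0.71 ± 0.61), Cxcl10 differed by 0.50 ± 0.48 and Cxcr3 by 0.48 ± 0.39.

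Dendritic cell markers were higher in 8 of 11 and lower in 3, with a median of 0.31 and members from -0.81 to 1.16. Without the first BXCL701 tumour 6 were higher and 5 lower, with a median of 0.15, and without the second vehicle tumour the median was 0.11. Without the first vehicle tumour or the third BXCL701 tumour it was 0.55 and 0.48. Irf8, a transcription factor of dendritic cells and monocytes, was 10.30, 9.76 and 10.21 against 10.71, 10.89 and 10.80 (0.71 ± 0.30), and was the 1 member without overlap. Clec9a, a receptor of cross-presenting dendritic cells, was 6.00, 5.78 and 5.35 against 6.67, 8.08 and 5.84 (1.15 ± 0.55), and the second BXCL701 tumour was the highest. Monocyte markers did not share a direction, with 3 of 7 higher, 4 lower and a median of -0.03.

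Immunoglobulin segments stood lower, while the B cell and plasma cell list was mixed. Of 358 immunoglobulin segments, 85 passed the filter. Of these 65 were lower and 20 higher, with a median of -1.20 and 9 lower without overlap. With a pseudocount of 5 the median was -0.79. In the 6 tumours of the comparison alone, 24 segments passed the filter, 21 lower and 3 higher, with a median of -1.66. The rest of the 85 passed only with libraries of other groups. A segment high only in vehicle tumours can pass the filter through them, so these counts are descriptions and give no support. Ighv14-3 was 2.47, 3.92 and 4.11 against 0.00, 0.00 and 0.84 (-3.22 ± 0.89). Igkv2-109 was 2.50, 6.09 and 4.44 in vehicle and listed at 0 in all 3 BXCL701 tumours, and Igkv4-59 was 6.46, 5.99 and 4.25 against 1.44, 0.00 and 0.85 (-4.80 ± 1.76). Such segments depend on a few plasma-cell clones per animal and share reads with one another. Of the 10 B cell and plasma cell genes, 8 were lower and 2 higher, with a median of -0.12 and members from -1.41 to 0.52, and none had an unadjusted p below 0.05. The median lay between -0.58 (without the first vehicle tumour) and -0.07 (without the first BXCL701 tumour). The 2 without overlap, both lower, were the plasma cell genes Jchain and Mzb1. Jchain, which joins secreted antibodies, was 8.65, 7.85 and 8.71 against 6.85, 7.52 and 6.63 (-1.41 ± 1.38). On day 14 the median of the immunoglobulin segments was 0.85, in the other direction.

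The targets of BXCL701 overlapped between the groups. Dpp4 was 6.90, 6.72 and 7.32 against 7.11, 7.95 and 6.41 (0.18 ± 0.47), and Fap 6.34, 7.47 and 8.09 against 7.32, 7.60 and 7.76 (0.26 ± 0.74). Dpp8 differed by 0.05 ± 0.31 and Dpp9 by -0.03 ± 0.15. Per length, Dpp9 averaged 29.7 ± 2.29 FPKM and Dpp8 17.0 ± 6.21 FPKM in vehicle, above Fap at 3.50 ± 1.97 FPKM and Dpp4 at 1.26 ± 0.287 FPKM (SD, n = 3 each). Of 13 inflammasome genes, 8 were higher and 5 lower, with a median of 0.09, which lay between 0.05 and 0.24 when the second or first vehicle tumour was left out. Nlrp1a, a sensor of the NLRP1 family, was 4.56, 4.84 and 4.98 against 5.37, 5.55 and 5.89 (0.81 ± 0.36), with no overlap.

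Several other lists had medians near that of all genes, but single tumours moved some of them to either side. The median was 0.01 for endothelial markers, 0.02 for fibroblast and matrix genes, 0.04 for glucocorticoid-induced genes, -0.07 for ribosomal proteins, -0.07 for the circadian clock and -0.08 for the unfolded protein response. For ribosomal proteins it was -0.27, with 75 of 76 lower, without the third BXCL701 tumour and 0.15, with 72 of 76 higher, without the second. The fibroblast median was -0.39 without the first vehicle tumour and 0.29 without the third. Leaving out single tumours gave -0.18 to 0.22 for endothelial markers, -0.10 to 0.09 for glucocorticoid-induced genes, -0.13 to -0.02 for the clock and -0.13 to 0.08 for the unfolded protein response.

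**Figure D3:**
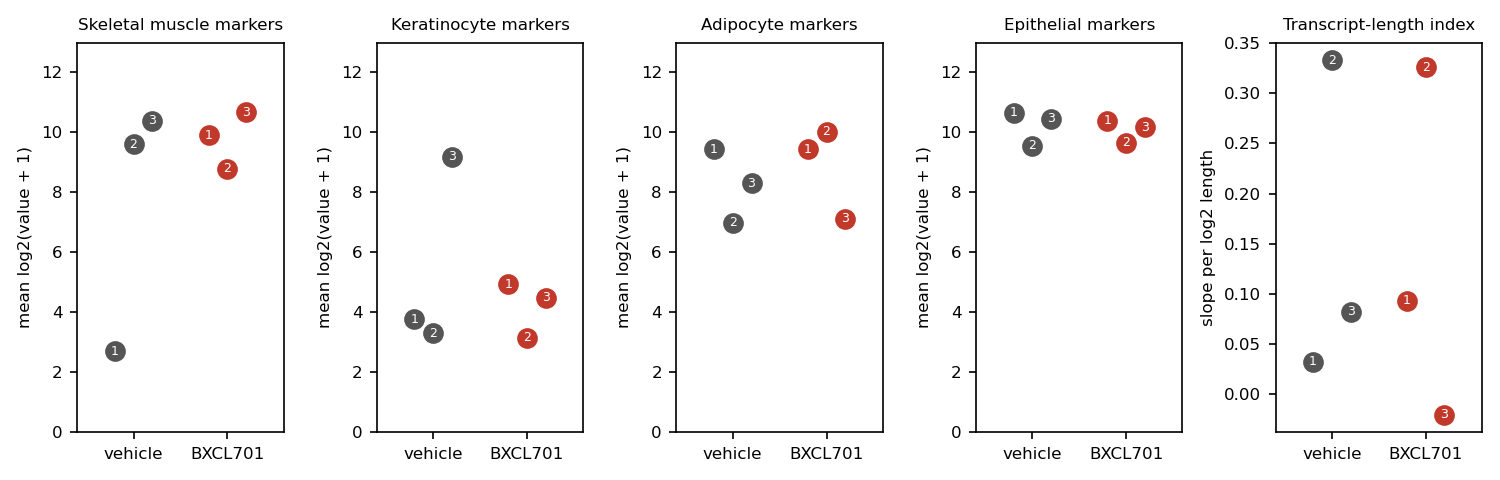
Mean level of marker lists of tissue around the tumour, of tumour epithelium, and the transcript-length index, in the 6 tumours, numbered by replicate (grey vehicle, red BXCL701). The first vehicle tumour has a muscle mean of 2.70 where the other 5 reach 8.79 to 10.68, and the third vehicle tumour a keratinocyte mean of 9.19.

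Tissue around the tumour was sampled unevenly. The skeletal muscle list had a mean level of 2.70, 9.61 and 10.39 in vehicle and 9.91, 8.79 and 10.68 under BXCL701. Its 14 genes were all higher under BXCL701, with a median of 2.47, which was -0.19 without the first vehicle tumour. The keratinocyte list was 3.77, 3.31 and 9.19 against 4.95, 3.16 and 4.49, with 14 of 14 lower and a median of -1.50. Without the third vehicle tumour 11 were higher and 3 lower, with a median of 0.84. The adipocyte list was 9.43, 6.99 and 8.30 against 9.45, 10.03 and 7.12. Epithelial carcinoma markers stood at 10.66, 9.56 and 10.46 against 10.39, 9.66 and 10.17 and overlapped. With the keratinocyte, muscle and adipocyte means as covariates, the medians were -0.54 for mitosis, -0.55 for cholesterol, 0.53 for type I interferon, 0.48 for neutrophil and 0.78 for class II genes. Hist2h2aa1, a replication-dependent histone H2A gene, was 1.17, 3.75 and 6.69 against 6.96, 7.48 and 6.87 (3.23 ± 0.90), and without the first vehicle tumour 1.88. The 38 tested replication-dependent histone genes had a median of -0.07, with 16 higher and 22 lower. The other named genes of small p-values were Gpr33, Col20a1 and N4bp2l1 on the higher side (2.49, 1.29 and 0.54) and Xrra1 and C2cd2 on the lower (-1.76 and -0.39). Gpr33 was 2.06, 0.74 and 2.25 against 4.34, 5.05 and 3.14. Every vehicle tumour of the series lay under the filter value of 10, so Gpr33 passed only through BXCL701 tumours and its difference gives no support. Xrra1 was 2.86, 3.35 and 3.22 against 0.19, 2.73 and 1.23, under a value of 10 in all 6 tumours. Cacna1h, a calcium channel, differed by 2.76 ± 0.82, but by -0.16 in the log2 FPKM table. The values of a library summed to 19133149 to 21850923 over the 6 tumours, and correlations were 0.928 to 0.972 between the groups, 0.927 to 0.966 within BXCL701 and 0.929 to 0.942 within vehicle.

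**Figure D4:**
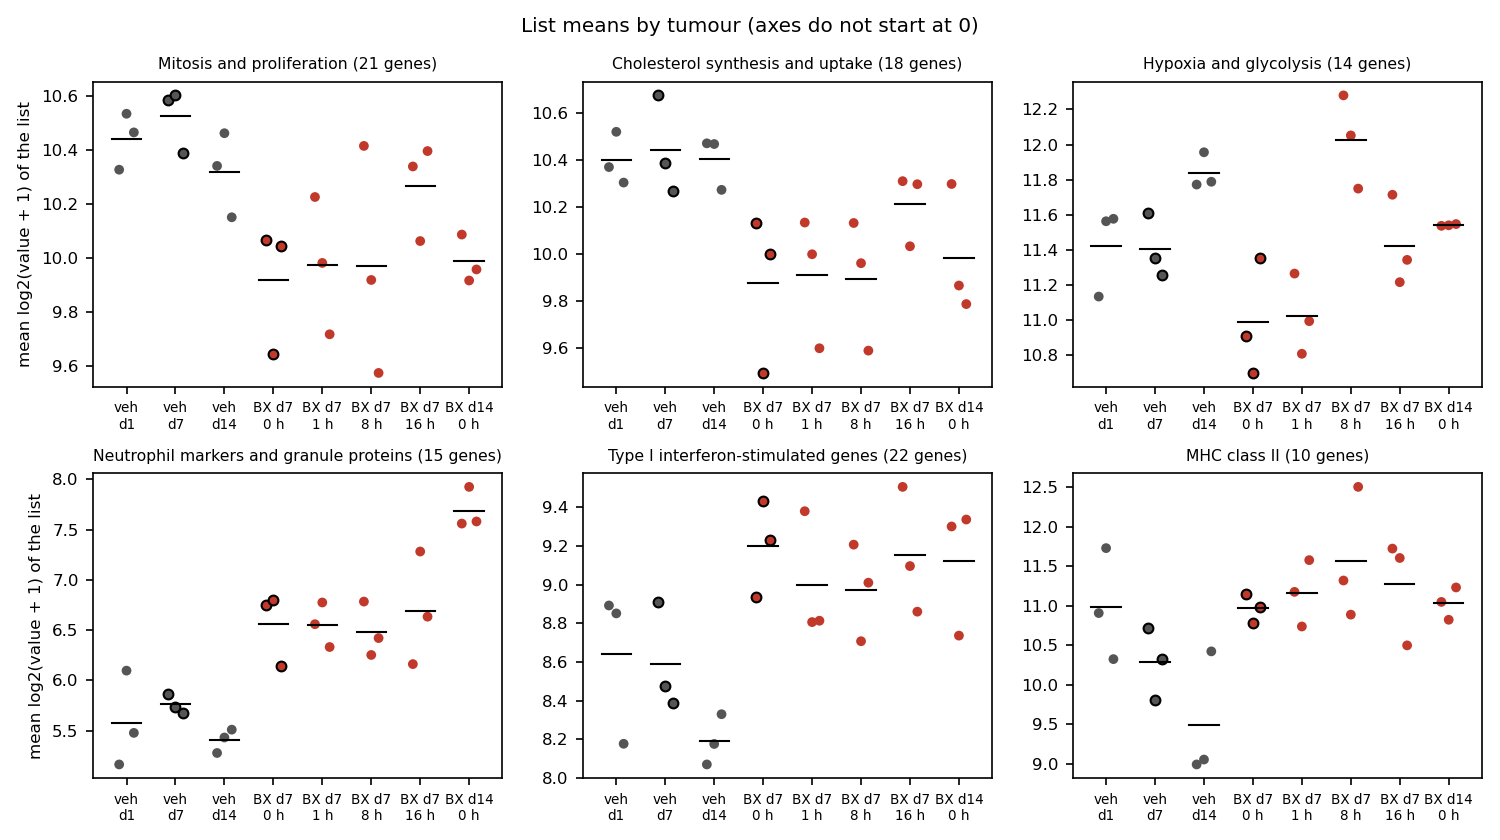
Mean level of 6 lists in each tumour of 8 groups (grey vehicle, red BXCL701, outlined for day 7, 0 h), with black lines for group means. The mitosis and cholesterol lists are lower in every BXCL701 tumour of day 7, 0 h than in its vehicle tumours, and hypoxia genes have their highest group mean at 8 h.

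The later hours of day 7 have no vehicle tumours at those hours here, and their levels are set beside those at 0 h with no test. The mitosis list averaged 9.92 ± 0.24 at 0 h under BXCL701 and 9.97 ± 0.25 at 1 h (SD, n = 3 each). It averaged 9.97 ± 0.42 at 8 h and 10.27 ± 0.18 at 16 h (SD, n = 3 each), where the tumours ran from 10.06 to 10.39, beside a vehicle mean of 10.52 at 0 h. The neutrophil list averaged 6.57 ± 0.36 at 0 h and 6.56 ± 0.22 at 1 h (SD, n = 3 each), 6.49 ± 0.27 at 8 h and 6.69 ± 0.56 at 16 h, beside a vehicle mean of 5.76 ± 0.10 at 0 h (SD, n = 3).

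On day 14 at 0 h, BXCL701 and vehicle tumours were compared in the same fit. There 116 genes (0.698%) rose and 14 (0.0843%) fell, 130 (0.783%) in all. That count depended on single tumours, in limma fits added after the data were seen. Without vehicle tumour 1, 2 or 3 of day 14 it was 0, 1 and 1253, and without BXCL701 tumour 1, 2 or 3 it was 24, 64 and 4. It was 38 with the neighbouring-tissue covariates and 1109 with the transcript-length index. For the difference between the days' effects, no gene passed (limma, adjusted p = 1, 460 genes or 2.77% at an unadjusted p below 0.05). No difference between the days is therefore shown by this test. Side by side, the medians on day 7 and day 14 were 0.58 and 1.67 for the neutrophil list, 0.55 and 1.40 for interferon gamma response, 0.74 and 1.77 for class II, 0.64 and 1.02 for type I interferon and -0.58 and -0.32 for mitosis. The vehicle means of these lists were also lower on day 14, which was not tested. For class II they were 10.29 and 9.49, beside 10.97 and 11.04 under BXCL701. For interferon gamma response they were 10.07 and 9.12, beside 10.63 and 10.55. For the neutrophil list they were 5.76 and 5.41, beside 6.57 and 7.69. Vehicle tumours of day 1 averaged 10.99 for class II, 10.24 for interferon gamma response and 5.58 for neutrophil genes. Of the 15 neutrophil genes, 4 stood higher without overlap on day 7, beside 3.36% of all genes. On day 14 it was 13, beside 6.69% of all genes. Ngp and Camp, the 2 lower on day 7, lay under the filter there and passed it through other groups. They are members of the list on both days, so its counts and medians include them and give no independent support.

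**Figure D5:**
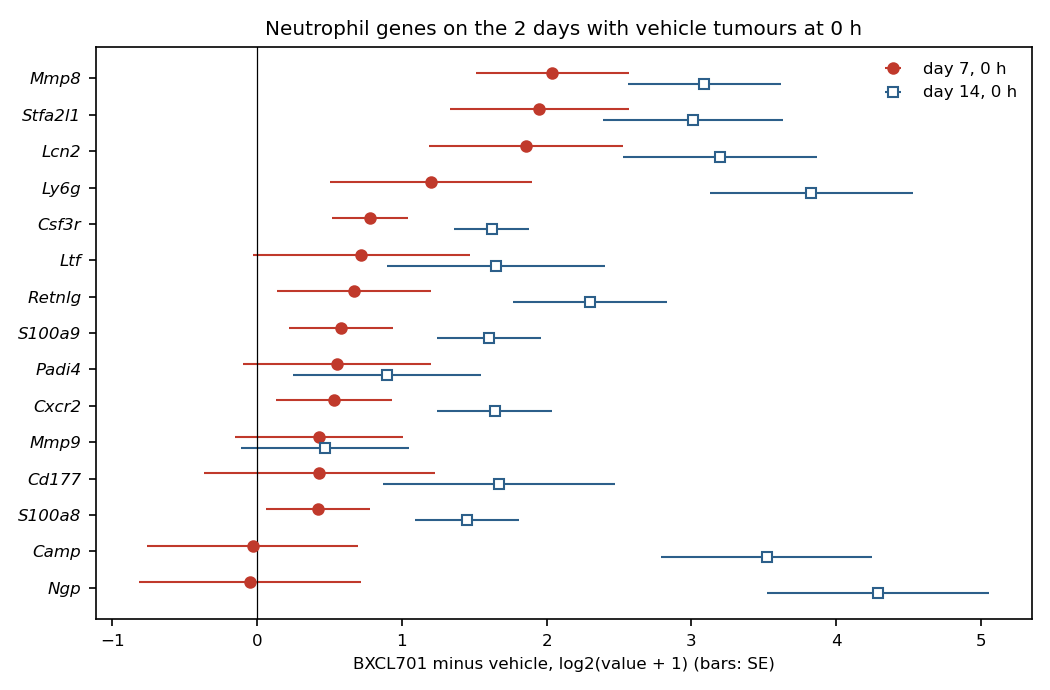
Difference of each tested neutrophil gene with its SE on day 7 (red circles) and day 14 (blue squares) at 0 h. Mmp8, Stfa2l1 and Lcn2 have the largest differences on day 7 (2.04, 1.95 and 1.86), while Camp and Ngp lie at -0.03 and -0.05.

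Ngp and Camp were named for their difference between the days, and on day 7 both lay under the filter on low values, which they passed through other groups. The difference between the days also contains the day 14 effect. Their contrast between the days and their day 14 differences are therefore descriptions, and the day 14 p-values below add no independent support. Ngp, neutrophilic granule protein, made in immature neutrophils, was 0.00, 1.43 and 1.40 in vehicle on day 7 and 1.43, 1.25 and 0.00 under BXCL701 (-0.05 ± 0.77). On day 14 it was 4.29 ± 0.77 higher under BXCL701 (limma adjusted p = 0.0119), from a mean of 0.94 to 5.23. The difference between the days was -4.34 ± 1.08, and did not pass. Camp, which encodes cathelicidin, also a granule protein of immature cells, was 0.00, 0.00 and 0.73 against 0.00, 0.63 and 0.00 on day 7, and its day 14 difference was 3.52 ± 0.73 (limma adjusted p = 0.0249). Leaving out single day 14 tumours gave adjusted p-values of 0.00541 to 0.0599 for Ngp, above 0.05 only without the first vehicle tumour, and 0.00813 to 0.234 for Camp, above 0.05 without the first or second tumour of either group. The differences were then 3.82 to 4.89 for Ngp and 3.09 to 4.14 for Camp. With a pseudocount of 5 they were 2.78 and 1.68, since the vehicle tumours lay near 0. Arsg, a lysosomal sulfatase, had a difference between the days of -1.74 ± 0.45, but of -0.29 in the log2 FPKM table. The 3 genes with the smallest p-values in the other direction were Nudt2 (0.63), Dmrta2 (2.55) and Pdia6 (0.58).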

How the data were processed

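Bulk RNA-seq of whole tumours was used. The authors' deposited gene table holds a signal for each gene and library, made of estimated reads that were scaled per library and are not whole numbers. The submitters' processing notes list Trimmomatic (0.36), Bowtie (0.12.9) and the GRCm38 build. How reads were assigned to genes, with which annotation, and how they were scaled is not given in the sources used here. Read depth is therefore unknown. The authors' log2 FPKM table was an alternative, and a copy of it in another gene order was left out.

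A gene was tested where 3 or more libraries had a value of 10 or higher (16613 of 47729 genes). Values entered as log2(value + 1), without further scaling, which understates changes of low genes. The limma package (3.58.1, in R 4.3.3, files read with data.table, version 1.17.8) fitted 1 coefficient for each of the 14 groups to all 42 libraries, leaving 28 residual degrees of freedom. Variances were moderated robustly with a trend on intensity. P-values were adjusted by Benjamini-Hochberg across all tested genes, and 0.05 was the threshold. A count test was not run, since the values are not raw reads. The script was tested on simulated data. Where a symbol had several identifiers, that with the matching GENCODE symbol was used, then that with the highest mean. Positions are those of GENCODE M21.

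The members, the 45 gene lists and the tests were chosen with earlier results of these data known. Genes named are the 12 of smallest p in each direction without predicted models, up to 4 of each list, 16 fixed genes and 3 in each direction of the difference between days. Some of them are not reported here. List members were counted and not tested as lists. Alternatives were other size factors, no filter, the libraries of the comparison alone, the log2 FPKM table, a pseudocount of 5, covariates for neighbouring tissue or transcript length, and leaving out each library. Leaving out the second tumour of both groups was chosen after seeing the data.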

Additional observations from a re-analysis of the deposited data

How the results depend on the processing

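The count of genes past the threshold was 0 for the day 7 comparison and 0 for the difference between days under every alternative run except that with no filter on low values. Without the filter, 10 genes passed for day 7 (5 higher and 5 lower) and 2 for the difference between days (Gm5510 and Gm26680), almost all of them predicted models, pseudogenes or an immunoglobulin segment (Ighv1-66, -3.04). Leaving out each library in turn gave 0 to 0 genes in both. Of 1127 values of 81 followed genes, 1103 kept their direction and 24 changed sign in 10 genes, and 0 passed the threshold. The cause was not tested.

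Cacna1h was -0.16 in the log2 FPKM table. With the covariates for neighbouring tissue, Dpp4 was -0.10, Dpp9 0.05, Fap -0.27 and Camp 0.06. Without the second tumour of both groups, Dpp4 was -0.35, Dpp9 0.04, Cd274 -0.02, Il6 0.03 and Ngp 0.01. Leaving out each library in turn gave -0.22 to 0.55 for Dpp4, -0.14 to 0.32 for Dpp8, -0.14 to 0.11 for Dpp9, -0.22 to 0.66 for Fap, -0.77 to 0.09 for Cxcl1, -0.52 to 0.40 for Ngp and -0.24 to 0.21 for Camp. Between the days, the 6 genes named kept their direction under every alternative run. The day 14 count of 130 was 76 without the filter.

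No paired analysis was possible because the replicate numbers follow the order of the records and pair no animals. Without the second BXCL701 tumour, Cdc20 was -0.28, Ccnb2 -0.32, Tacc3 -0.41 and Clec9a 0.55. Without the second vehicle tumour Mki67 was -0.42, and without the third Stfa2l1 was 1.29. With 3 tumours a group and unknown read depth, changes below 1.56-fold were mostly not detectable. Larger changes could also be missed, since 1.56-fold comes from an unadjusted interval and not from the test over all genes.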
